A study of Rattus norvegicus with 6 samples.

Results

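Messenger RNA of 46 genes of fatty acid oxidation, peroxisomes and lipid droplets was followed in rat kidney. They were listed by symbol and known function, with earlier results of these data in view, out of 15168 named genes with a probe on the array, so comparisons with all features are descriptions. Kidneys came from rats labelled diabetic, with 3 arrays, and from rats given Bailing Capsule, a fermented Cordyceps preparation, with 3 arrays, and every sample is labelled 21 weeks old. The series asks what Bailing Capsule does to kidney gene expression. The labels name no strain, sex, dose, route or duration, and do not say how diabetes arose or whether the treated rats were diabetic too. Samples carry replicate numbers, and nothing else says that they came from separate animals, so each p-value reflects variation among these samples only, which may be technical.

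Fatty acids taken up by a cell are joined to coenzyme A, passed into mitochondria on carnitine and shortened there by repeated beta-oxidation, while peroxisomes shorten very long and branched chains. Surplus fatty acid is stored as triglyceride in lipid droplets. The proximal tubule of the kidney, which reabsorbs most of the filtrate, draws much of its energy from this pathway. PPAR alpha, a nuclear receptor activated by fatty acids, pairs with RXR on DNA and raises the transcription of many of these genes.

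Levels are given on the log2 scale as the processed signal minus the 75th percentile of the same array, and differences are Bailing Capsule minus diabetic. Each array held 30367 probes, of which 64.5% to 73.5% were well above background, and 0 spots were saturated. The number of arrays limits the precision. Slide 1 carried all 3 Bailing Capsule arrays and diabetic 1, and slide 2 carried diabetic 2 and 3, so slide and group are partly confounded. A value with slide as a block equals the difference within slide 1 and rests on diabetic 1 alone. All 22 proximal tubule marker genes listed were well above background on all 6 arrays.

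The 46 genes had 51 probes. In all, 43 genes were tested, and 38 of these were well above background on all 6 arrays. Acox2, a peroxisomal oxidase of branched chains, was dim on diabetic 2, and Pdk4, a kinase that restrains pyruvate oxidation, was dim on Bailing Capsule 1, so each passed the filter through 1 group. Cpt1b, Echs1 and Bdh1 each lacked a value on 1 array because the spot was an outlier there. Acox3, another peroxisomal oxidase, and Ucp3, a mitochondrial carrier, were not well above background on any array. Etfdh, which passes electrons to ubiquinone, lost its spots on diabetic 2 and Bailing Capsule 1 and was not tested. Its remaining levels were 3.93 and 2.89 in diabetic kidneys and 3.01 and 2.85 in Bailing Capsule kidneys.

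Most of these genes had lower signals in Bailing Capsule kidneys. The log2 fold change was negative for 37 of 43 tested genes, against 62.1% of the 17892 features on the array, and the median was -0.69 with a range of -2.75 (Pdk4) to 0.83 (Acadsb), against a median of -0.09 over all features. Of the 38 members above background on all 6 arrays 33 were negative, with a median of -0.69. With quantile normalization 36 values were negative, with median scaling 37, and 34 in the authors' deposited table. Angptl4, Vnn1 and Plin2 fell in the limma test at an adjusted p under 0.05, and 0 genes rose. Among all features 0.19% were called lower. At an unadjusted p under 0.05 there were 22 lower members, where 4.54% of all features were lower, and 1 higher, Acadsb. At that p 537 of the 17892 features were higher. Every Bailing Capsule array lay below every diabetic array for 21 members, against 7.06% of all features, and above for 1, Acadsb, against 4.58%. A log2 fold change of -1 or below was found for 9 members and for 2.04% of all features. The 22, the 21 and the 9 count Pdk4, which passed the filter only through the diabetic arrays, where it was brighter. Cpt1b, with 2 diabetic values, is among the 21, and so is Ehhadh, whose nearest arrays were at 0.870 and 0.878. In bulk kidney RNA, fewer cells of a type and less RNA per cell cannot be told apart.

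The median over the members, each taken relative to its diabetic mean, was -0.03, 0.17 and -0.10 on the diabetic arrays and -0.55, -0.57 and -0.71 on the Bailing Capsule arrays. These medians did not overlap between groups. Under a block for slide the members had a median of -0.54, and 36 of 42 were negative, beside a median of 0.09 over all features, of which 40.6% were negative. limma called 0 members under the block, where 0.0559% of all features were called lower. There 9 members had an unadjusted p under 0.05, all of them lower, and the lowest adjusted p was 0.075. The share of all features at that unadjusted p was not counted under the block or within slide 1. Within slide 1 alone limma called 0 members, with 6 at an unadjusted p under 0.05, and 0.0224% of features were called lower.

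**Figure D1:**
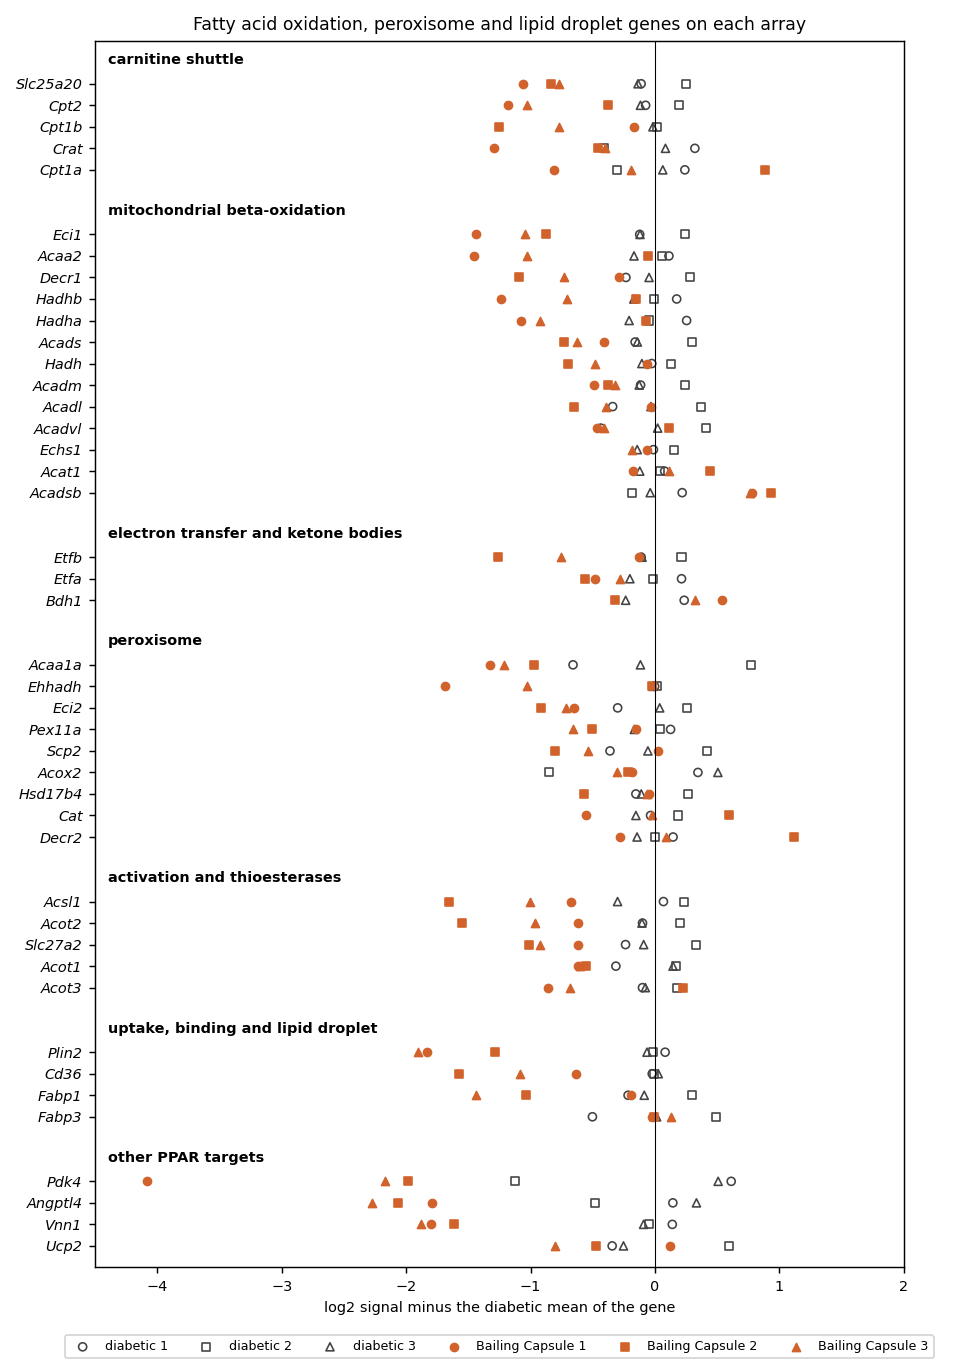
Signal of each tested gene on each array, as log2 signal minus the diabetic mean of that gene, grouped by role, with open black symbols for diabetic and filled orange symbols for Bailing Capsule arrays. Of 43 genes, 21 have all their orange symbols to the left of the black ones and Acadsb has them to the right.

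**Figure D2:**
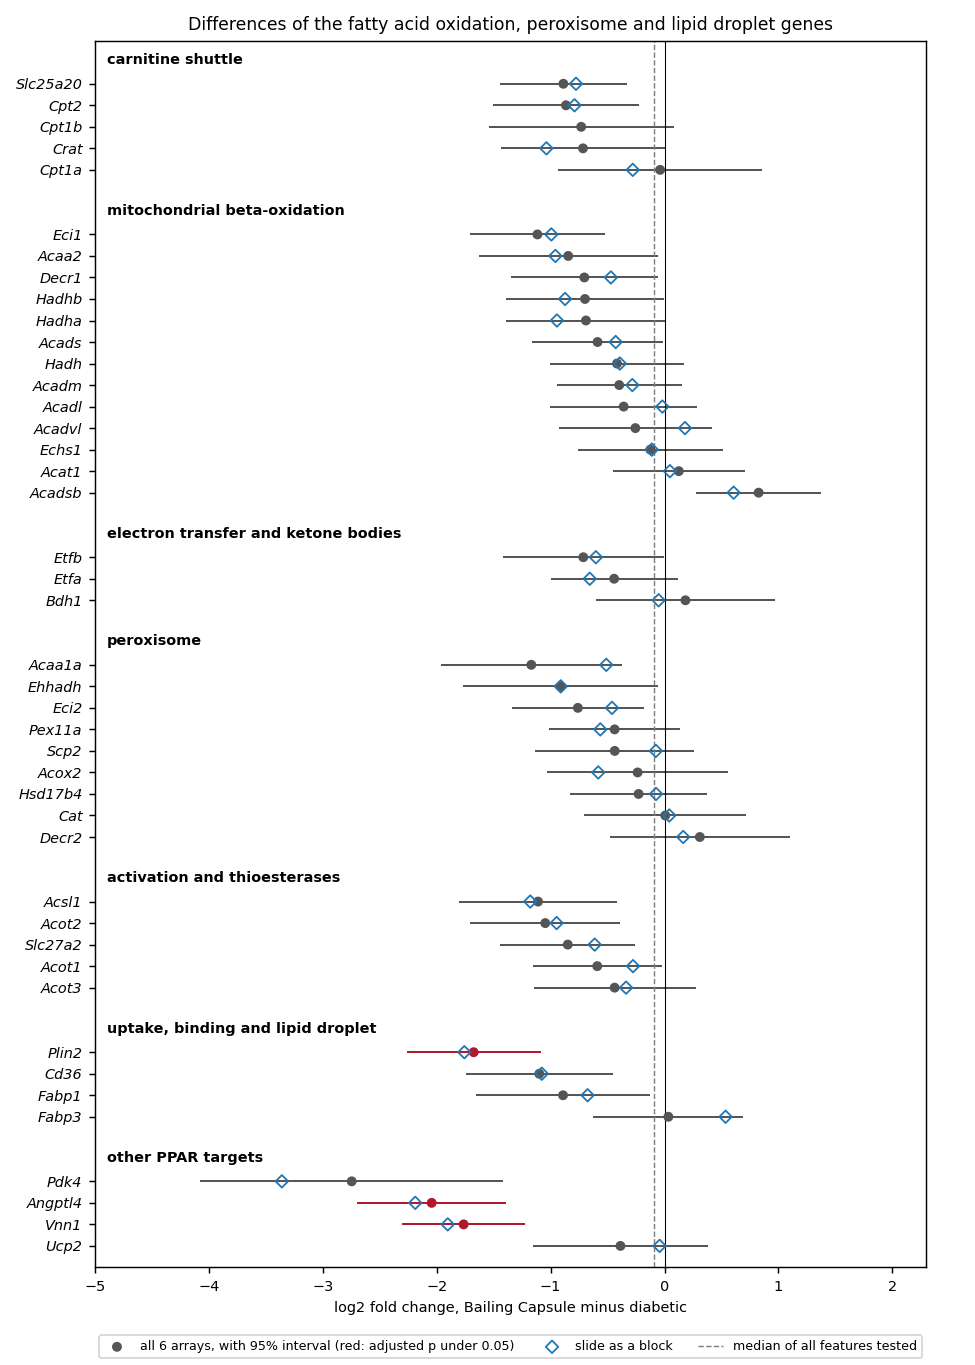
Log2 fold change of each tested gene with its 95% interval from limma, red where the adjusted p is under 0.05, and the value with slide as a block as an open diamond. Angptl4, Vnn1 and Plin2 are red, and most points lie left of the dashed median of all features at -0.09.

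Genes of fatty acid uptake, binding and storage came first along the path. Of 4 tested members 3 had negative values, 1 was called lower, and the median was -0.996. Plin2, which coats lipid droplets in most tissues, fell. Its levels were 3.72, 3.62 and 3.58 in diabetic kidneys and 1.81, 2.35 and 1.73 in Bailing Capsule kidneys. The diabetic arrays were tight, and more than a log2 unit lay between the groups. The log2 fold change was -1.68 (SE 0.26, 3.20-fold lower, limma adjusted p = 0.0319). With slide as a block it was -1.76 and was not called (adjusted p = 0.132).

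Cd36, a membrane receptor that takes up long-chain fatty acids, was at 1.43, 1.45 and 1.48 in diabetic kidneys and at 0.82, -0.13 and 0.36 in Bailing Capsule kidneys. The diabetic arrays were nearly level, the treated ones were spread over almost a log2 unit, and the groups did not overlap. The difference was -1.10 (SE 0.29, 2.14-fold, limma adjusted p = 0.224). Fabp1, the liver-type fatty acid binding protein that is also made in proximal tubules, was at -3.88, -3.36 and -3.75 against -3.85, -4.70 and -5.10. Bailing Capsule 1 lay among the diabetic arrays, and the difference was -0.89 (SE 0.34, adjusted p = 0.513), or -0.14 with normexp background correction. Fabp3, the heart-type binding protein, was at 1.9998, 2.99 and 2.52 against 2.48, 2.50 and 2.64, a difference of 0.03 with a 95% interval of -0.62 to 0.68.

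Promoter sequence from RefSeq (build GRCr8) was at hand for 41 of the 46 genes, in 42 windows of the 250 bases before the start. Windows were searched on both strands for AGGTCA, the core site of nuclear receptors, and for its direct repeat with a single base between, the form that PPAR and RXR bind together. The exact repeat AGGTCANAGGTCA was in 0 of 42 windows and in 0.0508% of all 33469 promoters. The looser AGGNCANAGGNCA was in 1 window, that of Fabp1 (2.38% of members, 0.368% of all), and AGGTCA, which that site holds too, in 8 (19.0% of members, 14.1% of all promoters, 11.5% of those of tested genes). The 8 genes were Fabp1, Slc27a2, Eci1, Acadvl, Echs1, Hsd17b4, Cat and Ucp3. Only Slc27a2 and Eci1 of these had non-overlapping groups, and Ucp3 was not tested for a difference. Among all 43 tested members 21 were lower without overlap. Whether the site goes with the difference was not tested. A match is a run of letters and does not show that a receptor binds there. No match in these 250 bases does not show that a gene lacks such a site, since sequence outside the window was not searched.

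The windows of Fabp1, with the repeat, and of Slc27a2 and Eci1, with that core site and non-overlapping groups, are shown beside that of Angptl4, the most reduced of the called members, where AGGTCA was not found. Each runs 5′ to 3′ on the gene's strand, and capitals mark the match, which lies on the opposite strand in all 3 cases and so reads as TGACCT.
Fabp1, chr4:104749090-104749339, plus strand, match starting at -77: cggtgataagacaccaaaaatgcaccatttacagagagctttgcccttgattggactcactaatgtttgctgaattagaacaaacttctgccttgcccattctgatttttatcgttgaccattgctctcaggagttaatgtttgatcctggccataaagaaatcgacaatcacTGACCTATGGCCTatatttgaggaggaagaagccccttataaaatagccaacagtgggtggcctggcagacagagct
Slc27a2, chr3:134257851-134258100, plus strand, match starting at -76: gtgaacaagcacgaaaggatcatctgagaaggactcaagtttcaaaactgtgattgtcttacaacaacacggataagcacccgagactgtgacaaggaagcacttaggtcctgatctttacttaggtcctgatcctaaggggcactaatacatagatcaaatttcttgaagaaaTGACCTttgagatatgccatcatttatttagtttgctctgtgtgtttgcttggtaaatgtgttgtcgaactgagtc
Eci1, chr10:13961000-13961249, plus strand, match starting at -94: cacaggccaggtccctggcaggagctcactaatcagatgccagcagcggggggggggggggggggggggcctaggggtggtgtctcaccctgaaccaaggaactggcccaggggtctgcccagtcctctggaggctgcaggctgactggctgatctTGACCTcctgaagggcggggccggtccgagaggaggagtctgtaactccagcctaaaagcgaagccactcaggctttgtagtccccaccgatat
Angptl4, chr7:15258682-15258931, minus strand, no match: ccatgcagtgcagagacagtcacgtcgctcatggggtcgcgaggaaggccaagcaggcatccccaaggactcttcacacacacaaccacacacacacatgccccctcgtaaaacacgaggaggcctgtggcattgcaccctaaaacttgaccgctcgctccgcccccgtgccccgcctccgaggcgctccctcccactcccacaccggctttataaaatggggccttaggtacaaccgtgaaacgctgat

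Genes that join fatty acids to coenzyme A, or release them from it, were next. All 5 tested members had negative values, 0 were called, 4 had an unadjusted p under 0.05 and non-overlapping groups, and the median was -0.85. Acsl1, the main long-chain acyl-CoA synthetase, was at 4.57, 4.73 and 4.20 in diabetic kidneys and at 3.83, 2.85 and 3.50 in Bailing Capsule kidneys. The difference was -1.11 (SE 0.31, 2.16-fold, limma adjusted p = 0.272). Slc27a2, whose promoter window holds AGGTCA, is a transport protein that also activates very long chains. It was at 5.85, 6.42 and 5.9988 against 5.47, 5.08 and 5.17, a difference of -0.85 (SE 0.26, adjusted p = 0.326). Acot2, a mitochondrial thioesterase that frees fatty acids from coenzyme A, was at 5.15, 5.46 and 5.15 against 4.63, 3.70 and 4.29, a difference of -1.05 (SE 0.29, adjusted p = 0.274).

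In each of these 3 genes the lowest treated array was Bailing Capsule 2. Acot1, the cytosolic thioesterase, had -0.59 with non-overlapping groups, and -0.28 with slide as a block. Acot3, a peroxisomal thioesterase, had -0.44, and Bailing Capsule 2 alone overlapped the diabetic arrays. Acot1, Acot2 and Acot3 are close relatives in sequence, and whether their probes share signal was not tested.

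All 5 genes of the carnitine shuttle had negative values, with a median of -0.73, 0 called and 3 at an unadjusted p under 0.05. Slc25a20, the carrier that exchanges acylcarnitine for carnitine across the inner membrane, was at -0.09, 0.27 and -0.11 in diabetic kidneys and at -1.04, -0.81 and -0.75 in Bailing Capsule kidneys. The gap between the groups exceeded the spread within either, and the difference was -0.89 (SE 0.25, 1.85-fold, limma adjusted p = 0.274). Cpt2, which returns the chain to coenzyme A inside the mitochondrion, was at 1.57, 1.84 and 1.53 against 0.46, 1.26 and 0.61. Bailing Capsule 2 was the highest treated array here, and the difference was -0.87 (SE 0.28, adjusted p = 0.372).

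Crat, which moves acetyl groups onto carnitine, was at 4.80, 4.07 and 4.56 against 3.19, 4.02 and 4.08. Bailing Capsule 3 was level with diabetic 2, and the difference was -0.72 (SE 0.32, adjusted p = 0.659), or -0.43 without Bailing Capsule 1. The gate-keeping enzymes of the outer membrane were not called. Cpt1b, the muscle form, was at 1.27 and 1.23 on diabetic 2 and 3 and at 1.08, -0.01 and 0.48 in Bailing Capsule kidneys, a difference of -0.73. Cpt1a, the liver form and the form usual in kidney, was at 0.82, 0.28 and 0.65 against -0.23, 1.47 and 0.39, with Bailing Capsule arrays both below and above all diabetic ones. Its difference was -0.04 with a 95% interval of -0.92 to 0.85.

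Of 13 genes of mitochondrial beta-oxidation 11 had negative values, with a median of -0.42. limma called 0, and at an unadjusted p under 0.05 there were 5 lower and 1 higher. Eci1, an isomerase that readies unsaturated chains for the cycle, was at 5.12, 5.49 and 5.12 in diabetic kidneys and at 3.81, 4.37 and 4.20 in Bailing Capsule kidneys. The groups were clear of each other and the difference was -1.12 (SE 0.26, 2.17-fold, adjusted p = 0.168). Decr1, a reductase with a similar part in unsaturated chains, was at 6.15, 6.66 and 6.33 against 6.09, 5.29 and 5.65. Bailing Capsule 1 lay just under diabetic 1, and the difference was -0.70 (SE 0.29, adjusted p = 0.580), or -0.46 with quantile normalization and -0.44 in the authors' deposited table.

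The core enzymes of the spiral ranged more widely. Acaa2, a thiolase, had -0.85. Hadha and Hadhb, the subunits of the trifunctional protein for long chains, had -0.69 and -0.70. For all 3 of these, Bailing Capsule 2 alone overlapped the diabetic arrays: Hadhb, for example, was at 2.90, 2.72 and 2.55 against 1.49, 2.57 and 2.02. The acyl-CoA dehydrogenases open each round. Acads, for short chains, had -0.59 and Acadm, for medium chains, -0.40, both with non-overlapping groups, while Acadl, for long chains, had -0.36 and Acadvl, for very long chains, -0.26, with overlap. With slide as a block Acadl had -0.02 and Acadvl 0.18. Hadh, a dehydrogenase of short chains, had -0.42 and Echs1, a hydratase, -0.12.

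Acadsb and Acat1 had positive values. Acadsb, which handles short branched chains from isoleucine breakdown, was at -3.12, -3.52 and -3.38 in diabetic kidneys and at -2.56, -2.41 and -2.58 in Bailing Capsule kidneys. All treated arrays were higher than all diabetic ones, and the difference was 0.83 (SE 0.24, 1.77-fold higher, limma adjusted p = 0.303). With normexp background correction it was 0.33. Acat1, a thiolase of ketone body and isoleucine metabolism, was at 2.39, 2.35 and 2.19 against 2.13, 2.75 and 2.42, a difference of 0.13 that lay inside the spread of the treated arrays.

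Of the electron transfer and ketone body genes 3 of 4 were tested, 2 had negative values and 0 were called, with 1 at an unadjusted p under 0.05. Etfb and Etfa encode the subunits of the flavoprotein that takes electrons from the acyl-CoA dehydrogenases. Etfb was at 5.28, 5.61 and 5.29 in diabetic kidneys and at 5.27, 4.13 and 4.64 in Bailing Capsule kidneys, a difference of -0.71 (SE 0.32, limma adjusted p = 0.645), or -0.44 without Bailing Capsule 2. Etfa was at 2.60, 2.38 and 2.19 against 1.91, 1.82 and 2.11, a difference of -0.44 (adjusted p = 0.792). The groups did not overlap in either gene, though Bailing Capsule 1 nearly touched the diabetic arrays for Etfb and Bailing Capsule 3 for Etfa. Bdh1, which interconverts the main ketone bodies, was at 2.65 and 2.18 on diabetic 1 and 3 against 2.96, 2.10 and 2.74, a difference of 0.18 with a 95% interval of -0.60 to 0.96.

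Of 10 peroxisomal genes 9 were tested, 7 had negative values, 0 were called and 3 had an unadjusted p under 0.05. The median was -0.44. Acaa1a, the peroxisomal thiolase, was at 5.002, 6.44 and 5.54 in diabetic kidneys and at 4.33, 4.69 and 4.45 in Bailing Capsule kidneys. The treated arrays were close together and below the diabetic ones, which spanned more than a log2 unit with diabetic 2 at the top. The difference was -1.17 (SE 0.35, 2.25-fold, limma adjusted p = 0.319), and -0.51 with slide as a block, which rests on diabetic 1, the lowest diabetic array here.

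Eci2, the peroxisomal isomerase, was at 5.12, 5.68 and 5.46 against 4.77, 4.50 and 4.70, a difference of -0.76 (SE 0.26, adjusted p = 0.397), and -0.46 with slide as a block. Ehhadh, the bifunctional enzyme of the peroxisomal cycle, was at 0.89, 0.91 and 0.88 against -0.79, 0.87 and -0.14. The diabetic arrays were nearly identical, and Bailing Capsule 2 was level with them while the others were well below. Its difference was -0.91 (SE 0.38, adjusted p = 0.601), -1.36 without Bailing Capsule 2 and -0.53 without Bailing Capsule 1.

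Among the remaining peroxisomal genes, Pex11a, which promotes peroxisome division, had -0.44, Scp2, a thiolase and sterol carrier, -0.44, Acox2 -0.24 and Hsd17b4, the other bifunctional enzyme, -0.23. Decr2, the peroxisomal reductase, was at -1.11, -1.26 and -1.40 in diabetic kidneys against -1.53, -0.14 and -1.17, a difference of 0.31, and -0.094 without Bailing Capsule 2. Cat, the peroxide-degrading catalase, was at 0.53, 0.75 and 0.41 against 0.01, 1.16 and 0.54. Bailing Capsule arrays lay on both sides of the diabetic ones, and the difference was 0.0065 with a 95% interval of -0.70 to 0.71.

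Of 5 other targets of PPAR 4 were tested, and 2 were called lower. No count or median is given for them as a group, since Pdk4 passed the filter through the diabetic arrays, where it was brighter. Angptl4, a secreted inhibitor of lipoprotein lipase, fell from 4.92, 4.30 and 5.11 in diabetic kidneys to 2.98, 2.71 and 2.50 in Bailing Capsule kidneys, with more than a log2 unit between the nearest arrays of the groups. The difference was -2.04 (SE 0.29, 4.13-fold lower, limma adjusted p = 0.0177). Vnn1, a pantetheinase that yields the coenzyme A precursor pantothenate, fell from 4.78, 4.59 and 4.55 to 2.84, 3.03 and 2.77. Both groups were tight, and the difference was -1.76 (SE 0.24, 3.40-fold lower, limma adjusted p = 0.0148).

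Pdk4 was not called. Its levels were -2.07, -3.80 and -2.17 against -6.76, -4.66 and -4.85, a difference of -2.75 (SE 0.59, limma adjusted p = 0.129). The difference is imprecise, since Bailing Capsule 1 was not well above background, and with normexp background correction it was -0.62. Diabetic 2 was the closest to the treated arrays. Ucp2, a mitochondrial carrier, had -0.39.

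With slide as a block Angptl4 had -2.19 and Vnn1 -1.90, and neither was called (adjusted p = 0.0787 and 0.075). Some calls were lost when 1 array was left out. Angptl4 was not called without diabetic 3 (-1.88, adjusted p = 0.114), Bailing Capsule 2 (-2.04, adjusted p = 0.0818) or Bailing Capsule 3 (-1.93, adjusted p = 0.0914). Vnn1 was not called without diabetic 2 (-1.79, adjusted p = 0.0792), diabetic 3 (-1.81, adjusted p = 0.094) or Bailing Capsule 3 (-1.71, adjusted p = 0.1003). Plin2 was not called without the same 3 arrays, at -1.69, -1.71 and -1.56 (adjusted p = 0.158, 0.141 and 0.173), nor with quantile normalization (-1.59, adjusted p = 0.0619). The sizes of these differences moved little while the adjusted p-values, from fits with fewer arrays, did. In the other direction, normexp background correction added Acaa1a, Acsl1, Cd36 and Eci1 to the called members.

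**Figure D3:**
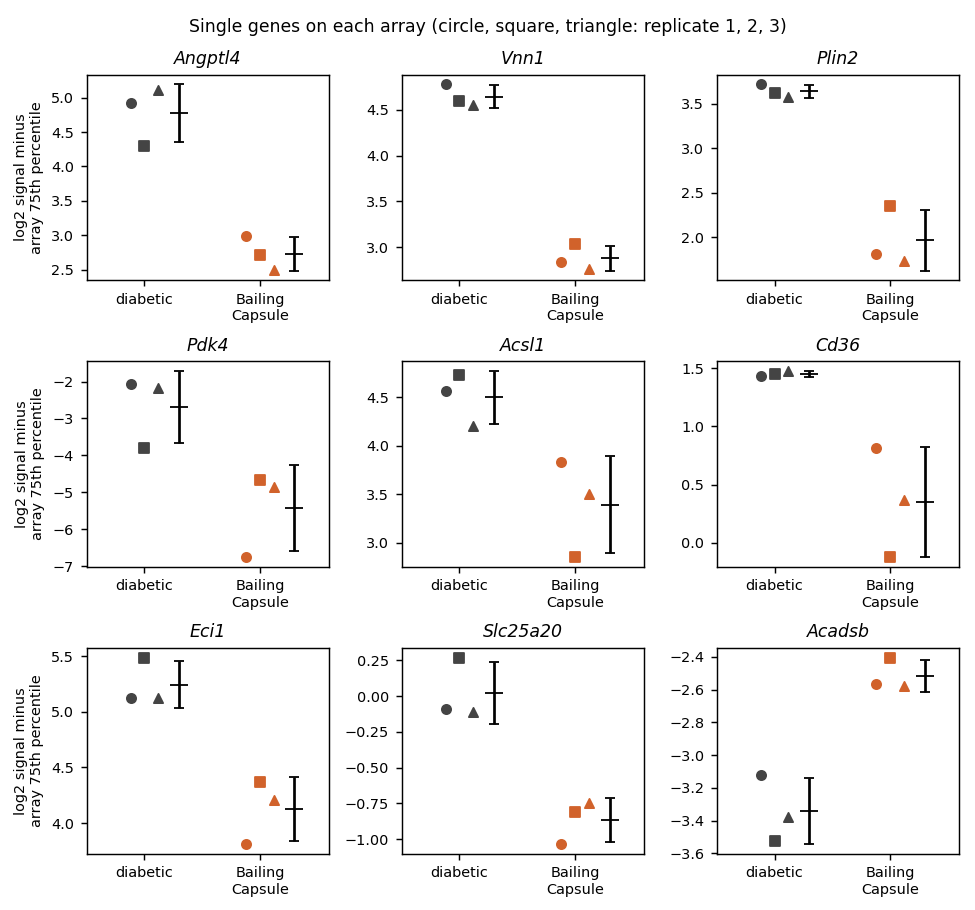
Levels of 9 genes on each array, as log2 signal minus the 75th percentile of the array, with the mean and SD of the 3 arrays of each group beside the points; each panel has its own axis, which does not start at 0. The groups do not overlap in any panel, and Acadsb is the panel where Bailing Capsule arrays are higher. These genes were picked as the strongest, a choice that favours groups without overlap. Pdk4 passed the filter through the diabetic arrays, where it was brighter.

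For 5 genes a further probe gave a check within the same arrays. The further probe of Cd36 gave -0.96 beside -1.10, that of Acot2 -0.95 beside -1.05 and that of Hadha -0.75 beside -0.69. The further Acot2 probe was dim, at -4.01, -3.71 and -4.10 in diabetic kidneys against -4.68, -4.84 and -5.14, which limits it as a check. The further Hadha probe had Bailing Capsule 2 below all diabetic arrays, where the brighter probe did not. Acaa1a was the exception in size: its dimmer probe had -0.31 beside -1.17, with levels of 4.12, 4.73 and 4.19 in diabetic kidneys and 4.01, 3.99 and 4.11 in Bailing Capsule kidneys. The further probe of Cpt1b was not well above background on any array. For members with 10 spots per array, the SD among spots was 0.02 to 0.14 on the log2 scale with a median of 0.06.

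**Figure D4:**
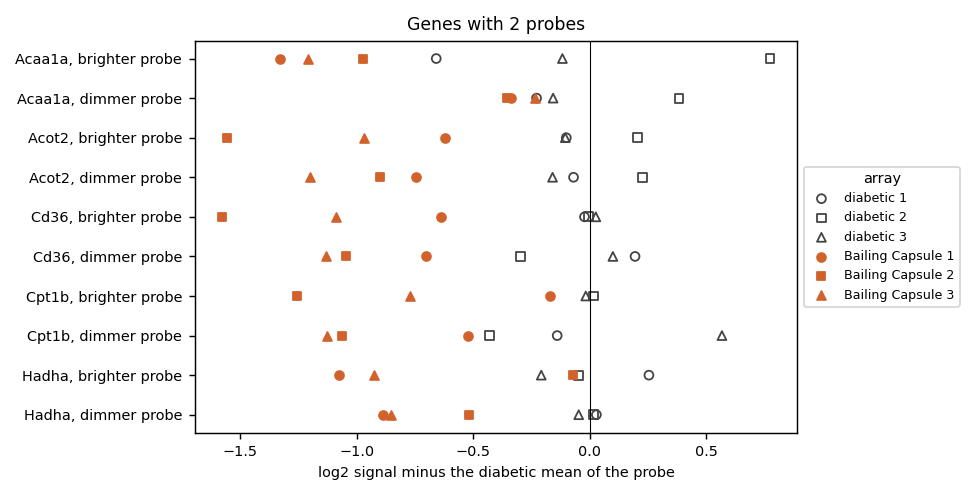
The 5 genes with 2 probes, as log2 signal of each probe on each array minus the diabetic mean of that probe. Both probes of Cd36 and of Acot2 separate the groups, while the probes of Acaa1a differ in size, at -1.17 and -0.31; the dimmer Cpt1b probe was not well above background on any array. The dimmer Acot2 probe averaged -3.94 in diabetic kidneys and the brighter one 5.25.

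The treated arrays did not share 1 order across the members. Bailing Capsule 2 was the highest of the treated arrays for 18 of 42 members with all 3 values, against 32.1% of all features. It lay above every diabetic array for 6 members, Bailing Capsule 1 for 2 and Bailing Capsule 3 for 3, counting Bdh1, which had 2 diabetic values. The share of all features that did so was not counted for any array. Cpt2, Ehhadh, Hadha, Hadhb and Acaa2 were nearest to diabetic levels on Bailing Capsule 2, while Acsl1, Acot2, Cd36, Decr1 and Etfb were lowest there. Where a single treated array made the groups overlap, it was Bailing Capsule 1 for 6 members (Acadl, Hadh, Scp2, Pex11a, Fabp1 and Ucp2), Bailing Capsule 2 for 4 (Hadha, Hadhb, Acaa2 and Acot3) and Bailing Capsule 3 for Crat. The same split over all features was not counted, so these counts are not a trait of the members.

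The receptors and coactivators that act on these genes showed no called difference. Of 13 listed 10 were tested, 3 had negative values, and the median was 0.05, with limma calling 0 and 0 at an unadjusted p under 0.05. Under the slide block 7 of the 10 were negative, with a median of -0.12. Ppara itself was at -0.22, -0.02 and -0.70 in diabetic kidneys and at -0.37, -0.62 and -1.02 in Bailing Capsule kidneys. Its difference was -0.36 with overlap. Rxrg, a partner receptor, had -0.55 and Ppargc1b, a coactivator of oxidative genes, 0.29.

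Related genes outside the 46 had medians nearer to 0. Of other mitochondrial lipid oxidation genes 24 of 28 were tested and 17 had negative values, with a median of -0.30. limma called 0 of them, and 7 were lower at an unadjusted p under 0.05, led by Acot7, a thioesterase (-0.82), Acad11, a dehydrogenase (-0.81), and Ech1, an isomerase (-0.84). Of other peroxisomal genes 36 of 42 were tested, 27 were negative, the median was -0.19 and 1 was called. That was Pipox, a peroxisomal oxidase of pipecolic acid and sarcosine, which fell from 1.41, 1.09 and 1.13 to -0.25, -1.12 and -0.79. The difference was -1.93 (SE 0.29, 3.82-fold lower, limma adjusted p = 0.0234), and -2.13 with slide as a block, where it was not called (adjusted p = 0.0795). The thioesterases Acot12 and Acot8 had -1.51 and -0.86.

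Of other lipid droplet and lipase genes 11 of 19 were tested and 8 were negative, with a median of -0.49. limma called 0, and at an unadjusted p under 0.05 there were 2 lower and 1 higher. Cidea, which promotes droplet fusion, had -1.90 (limma adjusted p = 0.058), Fitm1, of droplet formation, -0.93, and Lpl, the lipase that Angptl4 inhibits, 0.73. Lpl was at -0.41, -0.39 and -0.65 in diabetic kidneys and at 0.18, 0.04 and 0.52 in Bailing Capsule kidneys, so the groups did not overlap. Its adjusted p was 0.419.

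Markers of cell types were set beside these values. Over all 17892 features, limma gave 813 lower and 537 higher at an unadjusted p under 0.05. Of 22 proximal tubule markers 17 were negative, with a median of -0.29, and 0.06 with slide as a block. limma called 0 of them, and 1, the lactate transporter gene Slc5a12 (-1.03), was lower at an unadjusted p under 0.05. Slc7a7, of amino acid transport, had 0.74. In units of the 75th percentile, the markers' summed linear signal was 806 to 1301 in diabetic kidneys. In Bailing Capsule kidneys it was 682 to 1206, with overlap. That of the 40 members with values on all 6 arrays was 792 to 1068 and 502 to 652, without overlap. The members were listed with earlier results in view, and whether they differ from the markers was not tested. Genes of oxidative phosphorylation, a list added after values were seen, had 75 of 80 negative, a median of -0.28, and 0.0032 with slide as a block. limma called 0 of these, and 2 were lower at an unadjusted p under 0.05. The median of the fatty acid genes was -0.54 under the same block.

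Cd36, Angptl4 and Cidea are also abundant in fat. Of 9 tested adipocyte markers, which count Cidea and Lpl, 7 were negative with a median of -0.71, and -0.90 with slide as a block. limma called 0, with 2 lower and 1 higher at an unadjusted p under 0.05. The summed signal of the adipocyte markers was 14.1 to 21.2 in diabetic and 5.62 to 16.1 in Bailing Capsule kidneys. Lep and Ucp1 were not well above background on any array. The medians of the 9 markers were 0.29, 0.01 and -0.19 on the diabetic arrays and 0.18, -1.59 and -0.53 on the Bailing Capsule arrays. On Bailing Capsule 1 the markers differed among themselves. Adipoq was at 3.22 there, against 2.24 to 3.32 on diabetic arrays, while Cidea was at 1.33 against 2.74 to 3.09, Adrb3 at -3.995 against -3.24 to -1.65 and Cidec at -4.20 against -3.17 to -2.67. Like Adipoq, Fabp4, Cfd and Lipe lay within the diabetic range on that array, and Retn and Lpl lay above it.

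Fabp1, Ehhadh and Acaa1a are abundant in liver. Of 8 tested liver markers 6 were negative, with a median of -0.89, and -0.69 with slide as a block. limma called 0, with 4 lower and 1 higher at an unadjusted p under 0.05, and their summed signals overlapped at 21.2 to 50.9 in diabetic and 16.9 to 40.5 in Bailing Capsule kidneys. Fgb, a fibrinogen chain, had -1.74, and Cyp2c11, a cytochrome P450, 1.93. Under the slide block Cyp2c11 was called, at 2.91 (limma adjusted p = 0.0418). Apoa1, Ahsg, Cps1 and Tat were not well above background on any array. What part the fat and liver markers have in the values of the fatty acid genes was not tested. Markers of muscle, leukocytes, loop and collecting duct, podocytes and blood had medians of -0.05, -0.07, 0.25, 0.27 and 0.61.

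Of these other lists 1 gene was called. Slc26a4, the chloride-bicarbonate exchanger of intercalated cells in the collecting duct, rose 3.21-fold (limma adjusted p = 0.0457), and its call was lost under the slide block (adjusted p = 0.131). In that list Atp6v1g3, a proton pump subunit, had 1.09. limma called 0 muscle, leukocyte, podocyte or blood markers, with 2 leukocyte markers lower and 3 blood markers higher at an unadjusted p under 0.05. At that p 813 of all 17892 features were lower and 537 higher. The 2 lower leukocyte markers were the granulocyte genes S100a8 and S100a9, at -1.78 and -1.46. Both were well above background on only 2 Bailing Capsule arrays. They passed the filter through the diabetic arrays, where they were brighter. Alas2, of haem synthesis, and Pf4, of platelets, had 1.04 and 0.83. The podocyte genes Ptpro and Nphs1 had 0.70 and 0.46, and the muscle genes Ckm and Actn2 -0.51 and -0.13.

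**Figure D5:**
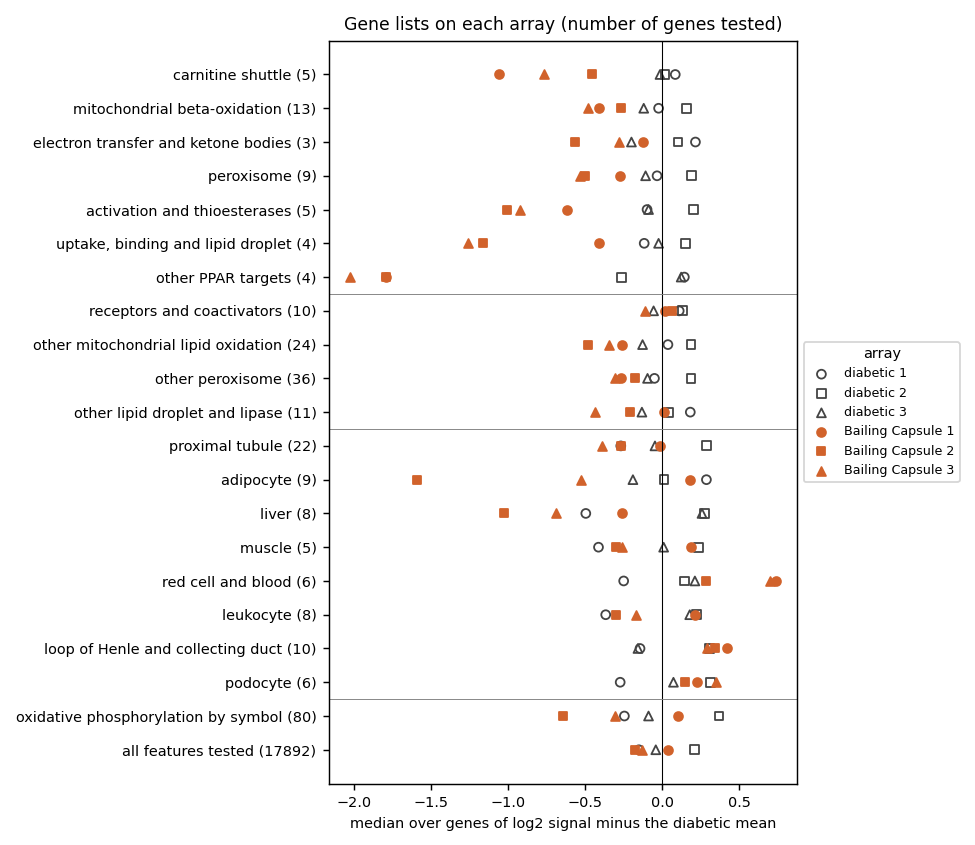
Median over the tested genes of each list, on each array, of the log2 signal minus the diabetic mean of the gene; the number of genes tested stands in brackets. All Bailing Capsule medians lie below the diabetic ones for the role groups other than electron transfer and ketone bodies and for the other mitochondrial and other peroxisomal lists, all lie above for red cell and blood, and the groups overlap for the rest. The other PPAR targets count Pdk4, which passed the filter through the diabetic arrays, where it was brighter.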

How the data were processed

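Per the labels, total kidney RNA was labelled with Cy3 and hybridised to Agilent one-colour rat arrays. Per the file headers, Feature Extraction 11.0.1.1 gave each spot's processed signal, an intensity after background correction. The authors deposited a table of log2 values too, with column medians of 5.05 to 5.06, which correlated with their own arrays at 0.983 to 0.994. The best correlation of a column with another array was 0.977 to 0.986, lower for every column but by a small margin. The scaling of the deposited table is not given in the sources used here. That table served as an alternative.

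Spots marked as outliers (597 to 1091 of 42877 per array) were left out, spots of a probe averaged and the array's 75th percentile of log2 signal subtracted. Probes well above background on all 3 arrays of a group (at least 50% of spots) were kept, and the brightest stood for its gene. RefSeq accessions named 18005 probes through a GRCr8 table and left 12362 unnamed; the array annotation names an older build. limma 3.58.1 (R 4.3.3; lmFit, eBayes) tested 17892 features, with Benjamini-Hochberg adjustment over all of them and calls at an adjusted p under 0.05. The test was tried on simulated arrays. 536 features lacked a value on at least 1 array.

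The members and lists were chosen with earlier results of these data known. Values on every array are given for called members, the 3 of smallest p in each role, and positive members; other lists are described by called genes and up to 3 by p (markers up to 2). Levels of Hadhb, Cpt1a, Cpt1b, Etfdh, Lpl, Adipoq, Cidec and the further Acot2 probe and groupings by array were added after values were seen. Same-numbered samples deviated with correlations of -0.18, -0.139 and 0.0138, so the numbers were not taken to pair samples.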

Additional observations from a re-analysis of the deposited data

How the results depend on the processing

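Single members were followed under 16 alternatives, and Acaa1a, Acot2 and Cd36 also by a further probe. Of 401 values of 25 members, 361 kept their sign and side of the threshold, 25 lost a call, 4 gained one and 11 turned sign. Most of these members had no call to lose, so staying uncalled counts among the 361. All 25 lost calls were of Angptl4, Vnn1 and Plin2, the called members. The number of called members was 7 with normexp background correction (offset 50). It was 0 in the deposited log2 table, with no filter on dim probes, with slide as a block, within slide 1 and with the replicate block, where limma gave 19, 15, 9, 6 and 18 at an unadjusted p under 0.05, and 0 to 3 with an array left out. Without diabetic 3 and without Bailing Capsule 3 it was 0 (14 at an unadjusted p under 0.05 in each), without diabetic 2 only Angptl4 was called and without Bailing Capsule 2 Plin2 and Vnn1. For these alternatives the share of all features at an unadjusted p under 0.05 was not counted. The members' median was -0.55 with normexp, -0.48 with quantile normalization, -0.44 in the deposited table, -0.54 with slide as a block and within slide 1, and -0.67 to -0.52 with an array left out. Among all features 99 were called with normexp, 6 with no filter, 9 within slide 1, 6 with the replicate block, and 17 to 195 with an array left out. Small positive values turned negative: Fabp3 to -0.061 with normexp, and Bdh1 to -0.052 with slide as a block and within slide 1. With an array left out, Bdh1 ran from -0.052 (without diabetic 3) to 0.43, Cat from -0.29 (without Bailing Capsule 2; -0.011 without diabetic 1 and -0.070 without diabetic 3) to 0.29, Fabp3 from -0.22 (without diabetic 1; -0.016 without Bailing Capsule 3) to 0.28, Acat1 from -0.032 (without Bailing Capsule 2) to 0.28 and Decr2 from -0.094 (without Bailing Capsule 2) to 0.60. Fits on fewer arrays or more features aside, the cause was not tested. Averaging its probes gave Acaa1a -0.74. Low signal over background limits Pdk4, Acox2, Acadsb, Fabp1 and the further probe of Acot2.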
